A study of Mus musculus with 7 samples.

Results

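miR-10a and miR-10b are paralogous microRNAs whose genes lie inside clusters of Hox genes. They were followed here as both arms of both hairpins, which makes 4 of the 1966 mature miRNA names counted in mouse hepatocyte small RNA libraries. The members are every arm of these hairpins by name, with no threshold on a measured value, although the family was picked with earlier results of these data known. Levels are CPM, the reads of a miRNA scaled to counts per 1000000 summed miRNA reads of its library. The hepatocytes came from liver by collagenase perfusion and low-speed centrifugation. There were 3 libraries of genotype WT and 4 of genotype ALAS12-KO, described in the series as ALAS1/2 mutant. ALAS is 5-aminolevulinate synthase, the first enzyme of heme synthesis. Every library of both genotypes carries the treatment label TMX, which the labels do not spell out. The series was made to ask what ALAS does in small RNA regulation. The sources used here do not give the age of the mice, the alleles or what drives the deletion. No label ties the libraries of a genotype to separate animals. The p-values then speak only of the spread among the libraries, some of which may be technical.

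A miRNA is cut from a hairpin, and usually 1 arm is loaded into an Argonaute protein, where the seed (bases 2 to 8) pairs with target mRNAs. Hox genes encode the transcription factors that pattern the body axis, and miRNAs of the miR-10 family sit among them in animals as distant as flies and mice. miR-10a is known in vascular endothelium as a restraint on inflammatory genes. miR-10b is best known for promoting cell migration in tumours, and raised levels have been described in liver cancer.

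The mature sequences are shown because the 5p arms of both paralogs are so alike that a count of one depends on reading 1 base correctly. They are the RefSeq entries on GRCm38.p6, written 5′ to 3′ with the seed in capitals, and all 4 members matched an entry.
mmu-miR-10a-5p: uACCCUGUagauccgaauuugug
mmu-miR-10b-5p: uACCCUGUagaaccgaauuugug
mmu-miR-10a-3p: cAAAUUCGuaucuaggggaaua
mmu-miR-10b-3p: cAGAUUCGauucuaggggaaua
Counted from the 5′ end, with the base of miR-10a first, the 5p arms differ by U12A alone. That base is outside the seed, so both 5p arms share the seed ACCCUGU. No other of the 1679 mature mouse names in the RefSeq table has this seed. The 3p arms differ by A3G, U9A and A10U, and the first of these is within the seed.

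The hairpins are shown with both mature arms in capitals, to place the arms that were counted.
Mir10a: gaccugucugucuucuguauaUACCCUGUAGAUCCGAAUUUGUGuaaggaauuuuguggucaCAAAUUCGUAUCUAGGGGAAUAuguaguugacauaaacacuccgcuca
Mir10b: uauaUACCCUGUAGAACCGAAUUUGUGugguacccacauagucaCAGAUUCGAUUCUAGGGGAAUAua
Mir10a lies on chromosome 11 (GRCm38, 96317165 to 96317274, plus strand) and overlaps no other gene in GENCODE M21. Hoxb4 starts 993 bases after it, and Hoxb5 ends 11044 bases before it. Mir10b lies on chromosome 2 (74726070 to 74726137, plus strand) in introns of Hoxd3 and Hoxd4, on their strand and outside their exons.

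The libraries held 7719180 to 21962191 miRNA reads. No pair within a genotype looked like 1 library deposited again, as the chi-square of their counts divided by its degrees of freedom ran from 112 to 1288. The label of hepatocytes was checked against marker miRNAs. The hepatocyte list, led by miR-122-5p, took 58.7% to 67.1% of miRNA reads. The endothelial list took 1.10% to 5.25%, the leukocyte list 0.293% to 1.08% and the mesenchymal list 0.157% to 0.702%. No marker of any list was at 0 in any library. ALAS12-KO replicate 1 was the lowest of the 7 libraries in all 2 endothelial, 6 leukocyte and 6 mesenchymal markers. It was also the lowest in 4 of 5 cholangiocyte and 2 of 4 red cell markers. A Dixon outlier test among the 4 ALAS12-KO libraries did not flag it. Its ratios were 0.569 for the endothelial, 0.507 for the leukocyte and 0.468 for the mesenchymal list, under the critical value of 0.829. As it was the lowest so often, the genotype differences of the members are given with and without it. Deletion of Alas1 or Alas2 cannot be checked from miRNA counts.

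mmu-miR-10a-5p was the main product of these loci and varied more among the ALAS12-KO libraries than between the genotypes. It stood at 947, 914 and 1222 CPM in WT replicates 1 to 3. It stood at 271, 594, 1279 and 969 CPM in ALAS12-KO replicates 1 to 4. The highest and the lowest library are both ALAS12-KO, so the groups overlapped. The WT mean was 1027 ± 169 CPM (SD, n = 3), and the ALAS12-KO mean was 778 ± 439 CPM (SD, n = 4). The highest library was 1.34 times the lowest in WT and 4.71 times the lowest in ALAS12-KO. By level it ranked between 43rd and 55th among all miRNAs of a library, except in ALAS12-KO replicate 1, where it ranked 70th.

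The genotype difference of miR-10a-5p was within the spread between libraries. The log2 fold change (ALAS12-KO over WT, TMM-scaled) was −0.29 ± 0.35 (SE), with an edgeR adjusted p of 0.659. Without ALAS12-KO replicate 1 it was −0.06, and without ALAS12-KO replicate 3, the highest library, it was −0.62, with edgeR adjusted p of 0.917 and 0.308. Whether lower values reflect fewer cells that carry a miRNA or less of it per cell cannot be told apart in RNA of bulk cells.

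mmu-miR-10a-3p, the minor arm, stood at 21.5, 20.5 and 31.5 CPM in WT replicates 1 to 3. It stood at 6.91, 15.7, 22.8 and 18.6 CPM in ALAS12-KO replicates 1 to 4. The highest library was WT replicate 3 and the lowest ALAS12-KO replicate 1, and the groups overlapped through ALAS12-KO replicate 3. The WT mean was 24.5 ± 6.07 CPM (SD, n = 3), and the ALAS12-KO mean was 16.0 ± 6.71 CPM (SD, n = 4). The log2 fold change was −0.47 ± 0.30, with an edgeR adjusted p of 0.387, −0.29 without ALAS12-KO replicate 1 and −0.68 without ALAS12-KO replicate 3.

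mmu-miR-10b-5p carries the seed of miR-10a-5p at a far lower level. It stood at 3.99, 5.37 and 3.37 CPM in WT replicates 1 to 3, from 64, 118 and 26 reads. It stood at 1.06, 2.18, 5.97 and 3.60 CPM in ALAS12-KO replicates 1 to 4, from 14, 22, 102 and 59 reads. Again the highest and the lowest library were ALAS12-KO replicates 3 and 1. The WT mean was 4.25 ± 1.03 CPM (SD, n = 3), and the ALAS12-KO mean was 3.20 ± 2.12 CPM (SD, n = 4). The log2 fold change was −0.31 ± 0.44, with an edgeR adjusted p of 0.706, −0.08 without ALAS12-KO replicate 1, −0.05 without WT replicate 2 and −0.76 without ALAS12-KO replicate 3.

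mmu-miR-10b-3p was barely detected, with 5 reads over all 7 libraries. These were 2 reads in WT replicate 2, 1 in WT replicate 3 and 2 in ALAS12-KO replicate 3. The other 4 libraries had 0 reads, which allows up to 0.183 to 0.297 CPM (3 reads a library). Both groups are at or under that floor, so no fold change is given, and it did not pass the filter on low counts.

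**Figure D1:**
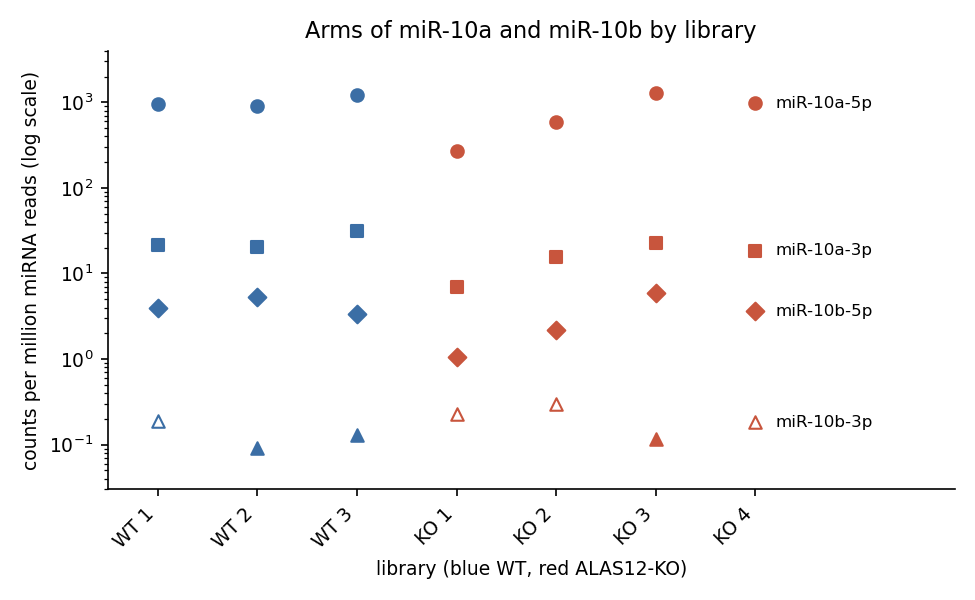
CPM (log scale) of the 4 arms in each library, WT in blue and ALAS12-KO (KO) in red, with open symbols at the level of 3 reads where a library had 0. The 3 counted arms are all lowest in ALAS12-KO replicate 1 (271, 6.91 and 1.06 CPM), and the arms keep the same order in every library.

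Across all miRNAs, edgeR called 0 of 450 tested, a background of 0%, with 84 at unadjusted p under 0.05, and 0 of the 3 tested members were among those. DESeq2 called 22 of the 389 to which it gave an adjusted p, and limma-voom called 0, with 97 and 90 at unadjusted p under 0.05, and 0 of the calls were members. The groups did not overlap in CPM for 93 of the 450 miRNAs (20.7%), with ALAS12-KO the lower in 69 of them (15.3% of all tested). They overlapped in each of the 3 tested members, so 0 of 3 stood clear. All 3 had a negative log2 fold change, and the median over all tested miRNAs was 0.06. Scaled by library totals, as the CPM values are, the log2 fold changes were −0.40 for miR-10a-5p, −0.61 for miR-10a-3p and −0.40 for miR-10b-5p, against a median of −0.12. The spread within a genotype was wide. The residual SD of log2 CPM was 0.77 for miR-10a-5p, 0.62 for miR-10a-3p and 0.83 for miR-10b-5p. These are at percentiles 86.4, 74.2 and 89.1 of the 450 tested miRNAs, a description without a test.

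**Figure D2:**
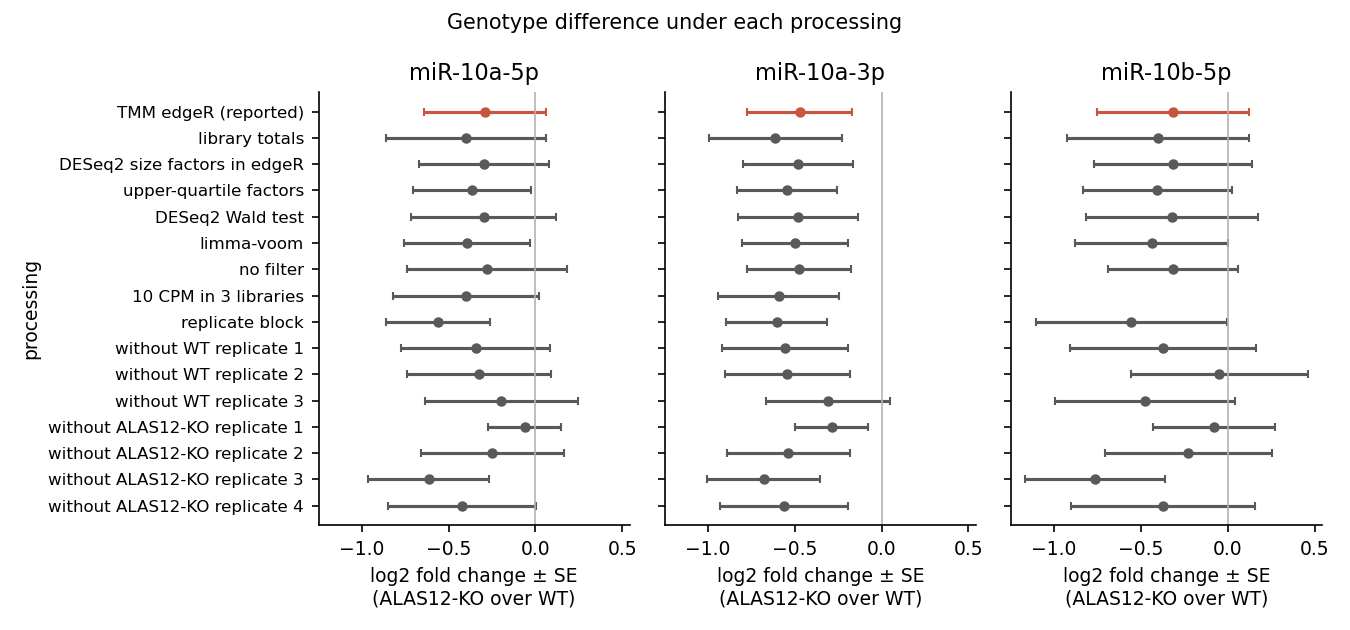
Log2 fold change (ALAS12-KO over WT) with its SE for the 3 tested arms under the reported fit (red) and each alternative (grey). All points lie below 0, between −0.62 and −0.06 for miR-10a-5p, and those without ALAS12-KO replicate 1 lie closer to 0 than the reported value.

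The share of miR-10b among the 5p reads is unaffected by how libraries are scaled. Its test asks whether the genotype difference is alike in both paralogs, provided that the miR-10b-5p reads are not misread miR-10a-5p reads. miR-10b-5p made up 0.42% (exact Clopper-Pearson 95% interval 0.324 to 0.536), 0.584% (0.484 to 0.70) and 0.275% (0.18 to 0.403) in WT replicates 1 to 3. In ALAS12-KO replicates 1 to 4 it made up 0.39% (0.213 to 0.653), 0.366% (0.229 to 0.553), 0.465% (0.379 to 0.564) and 0.37% (0.282 to 0.477). The highest and the lowest share were both WT, and their intervals do not overlap. Intervals and floors cover counting error only, since nothing says that reads were collapsed to molecules. The mean log2 ratio of miR-10b-5p to miR-10a-5p was −7.93 ± 0.55 for WT (SD, n = 3) and −7.98 ± 0.16 for ALAS12-KO (SD, n = 4). The difference was −0.04, with a two-sided exact permutation p of 0.886 over 35 splits, whose smallest possible p is 0.0286. The sign turned without WT replicate 2 (0.22, exact permutation p = 0.40).

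Over all libraries there were 405 reads of miR-10b-5p and 91976 of miR-10a-5p, 227 reads of miR-10a for each of miR-10b. Because U12A is the only difference, a miR-10b-5p read and a miR-10a-5p read with that base misread or mismatched cannot be told apart in these counts. The 3p arms, which differ at 3 bases, gave 5 reads of miR-10b-3p beside 1980 of miR-10a-3p. The share of miR-10b was 0.252% (exact 95% interval 0.0818 to 0.587) among 3p reads and 0.438% (0.397 to 0.483) among 5p reads, and the intervals overlap. With 5 reads of miR-10b-3p, that overlap cannot show whether the miR-10b-5p reads are genuine.

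**Figure D3:**
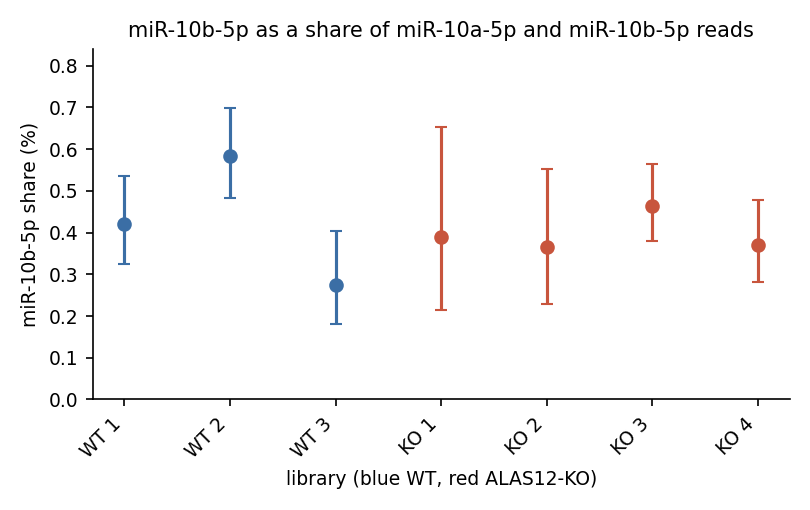
miR-10b-5p reads as a percentage of all miR-10a-5p and miR-10b-5p reads in each library, with exact 95% intervals for counting error. The ALAS12-KO libraries (red) lie between 0.366% and 0.465%, inside the range of the WT libraries (blue), 0.275% to 0.584%.

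The balance of the arms of miR-10a differed between some libraries by more than counting error, but not detectably between the genotypes. The 3p arm made up 2.22%, 2.20% and 2.51% of the reads of both arms in WT replicates 1 to 3. It made up 2.48%, 2.57%, 1.75% and 1.88% in ALAS12-KO replicates 1 to 4. ALAS12-KO replicate 3 had the lowest share, and its exact 95% interval (1.58 to 1.93) lies below those of WT replicates 1 (1.99 to 2.46), 2 (2.00 to 2.41) and 3 (2.21 to 2.84), and also below those of ALAS12-KO replicates 1 (2.00 to 3.04) and 2 (2.19 to 2.99). The WT mean was 2.31% ± 0.177 (SD, n = 3), and the ALAS12-KO mean was 2.17% ± 0.415 (SD, n = 4). The log2 ratio of 3p to 5p differed by −0.11 ± 0.19 (SE) between the genotypes, with a limma adjusted p of 0.886. limma called 0 of 130 hairpins, a background of 0%, with 7 at unadjusted p under 0.05. The miR-10b hairpin was not tested, because its 3p arm did not pass the filter, and 5 of its 410 reads in all were 3p (1.22%, exact 95% interval 0.397 to 2.82).

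**Figure D4:**
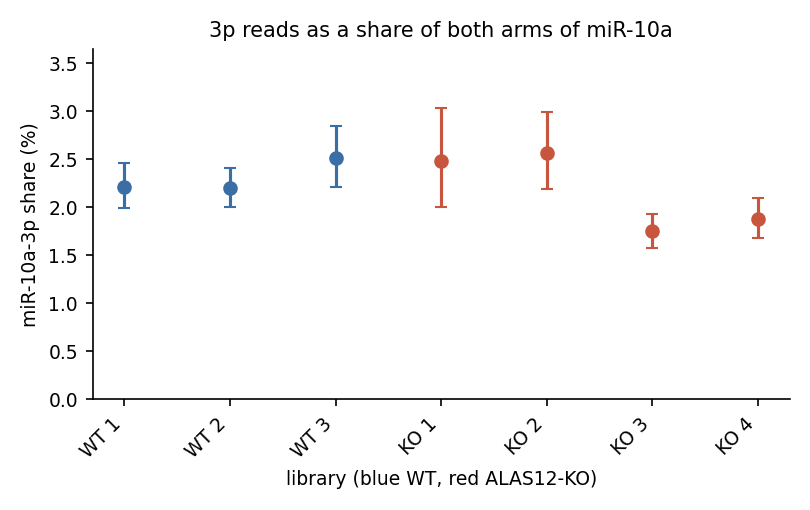
miR-10a-3p reads as a percentage of the reads of both miR-10a arms in each library, with exact 95% intervals for counting error. ALAS12-KO replicates 3 and 4 have the lowest shares, 1.75% and 1.88%, and the other 5 libraries lie between 2.20% and 2.57%.

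The profiles of both miR-10a arms over the 7 libraries ran closer to those of leading endothelial, leukocyte and mesenchymal miRNAs than to that of miR-122-5p. However, ALAS12-KO replicate 1 carried much of the distance to the hepatocyte miR-122-5p. From the lowest to the highest library, miR-122-5p ranged only 1.15-fold in CPM and miR-10a-5p 4.71-fold. The distance from so flat a profile mostly reflects how much miR-10a itself varied, and any variable miRNA would lie far from it. Likeness was measured as the root mean square (RMS) difference of log2 CPM, each profile centred on its own mean. It was computed against 220 miRNAs with a mean of at least 10 CPM, and the median difference from miR-10a-5p was 0.67. The 5 closest to miR-10a-5p were miR-23a-3p (RMS difference 0.09), miR-326-3p (0.10), miR-351-5p (0.16), miR-146a-5p (0.16) and miR-126a-5p (0.17). miR-146a-5p is a brake on NF-kB signalling that is abundant in immune cells, and miR-126a is the defining miRNA of endothelium. The closest, miR-23a-3p, miR-326-3p and miR-351-5p, are in none of the marker lists. The 5 closest to miR-10b-5p were miR-450b-5p (0.27), miR-132-3p (0.29), miR-503-5p (0.31), miR-23a-3p (0.32) and miR-223-3p (0.34), the last a miRNA of myeloid cells. Of these, only miR-223-3p is in a marker list. miR-10a-5p itself lay at 0.30 from miR-10b-5p. Against the summed level of each marker list, miR-10a-5p lay at 0.18 from leukocyte, 0.22 from mesenchymal, 0.22 from endothelial, 0.44 from red cell, 0.53 from cholangiocyte and 0.77 from hepatocyte. Without ALAS12-KO replicate 1, an alternative added after seeing the data, miR-10a-5p lay at 0.40 from miR-122-5p in place of 0.77, and the median over the 220 miRNAs was 0.38. Its distance from miR-126a-3p was 0.25 with that library and 0.26 without it, and from miR-142a-3p 0.19 and 0.16. Of the 5 closest to miR-10a-5p, miR-23a-3p, miR-326-3p, miR-351-5p and miR-146a-5p remained among the 5 closest without that library. Of those of miR-10b-5p, miR-450b-5p and miR-132-3p remained. All these profiles come from the same 7 libraries and share their totals.

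miR-10a-3p, for which neighbours were looked up after its values were seen, ran closer still to the endothelial miRNAs. Its 5 nearest were miR-126a-5p (RMS difference 0.05), miR-126a-3p (0.07), miR-27a-3p (0.09), miR-542-3p (0.09) and miR-322-5p (0.10). Of these, miR-27a-3p, miR-542-3p and miR-322-5p are in none of the marker lists. The summed endothelial list lay at 0.06, the leukocyte list at 0.13 and the mesenchymal list at 0.14. miR-10a-3p had only 91 to 451 reads a library, and these differences take no account of counting error. The order of differences this small may therefore not be resolved. Its own 5p arm lay at 0.20 and miR-122-5p at 0.68. Without ALAS12-KO replicate 1, miR-126a-5p lay at 0.04, miR-126a-3p at 0.08, the 5p arm at 0.21 and miR-122-5p at 0.33. miR-10a-3p ranged 4.56-fold in CPM over the libraries, and miR-126a-3p 4.78-fold. Per 1000 reads of miR-126a-3p the WT libraries had 0.849 ± 0.0280 reads of miR-10a-3p (SD, n = 3) and the ALAS12-KO libraries 0.929 ± 0.0248 (SD, n = 4). Against this marker the groups did not overlap, with ALAS12-KO the higher (0.898 to 0.952, WT 0.824 to 0.879), which held for 142 of the 449 tested miRNAs other than the marker (31.6%). The order turned with the marker. Per 1000 reads of the leukocyte miR-142a-3p, ALAS12-KO was the lower with no overlap (4.44 to 4.90, WT 4.96 to 6.45), which held for 21 of 449 (4.68%). Against the mesenchymal miR-143-3p the groups overlapped (5.01 to 5.76, WT 4.51 to 6.40). Per 1000 reads of miR-122-5p the highest library had 4.91 times the lowest. Against miR-126a-3p the closest libraries were ALAS12-KO replicate 2 (0.898) and WT replicate 3 (0.879), with 158 and 243 reads of miR-10a-3p. Against miR-142a-3p they were ALAS12-KO replicate 2 (4.90) and WT replicate 2 (4.96), with 158 and 451 reads. Both gaps are narrower than counting error at such read numbers. These ratios were chosen after the values were seen and carry no test.

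The endothelial, leukocyte, mesenchymal, cholangiocyte and red cell lists were all lowest, like the 3 tested members, in ALAS12-KO replicate 1. In ALAS12-KO replicates 3 and 4 miR-10a-5p was at 0.68 and 0.27 (log2, centred). There the cholangiocyte list, at −0.09 and −0.56, and the red cell list, at −0.19 and 0.20, followed it less closely. The summed hepatocyte list, mostly miR-122-5p, ran the other way, at 0.09 in ALAS12-KO replicate 1 and −0.10 in replicate 3. Its 6 markers did not all do so, as 3 were highest in ALAS12-KO replicate 1. In replicate 3, 1 of them was lowest and 2 were highest. As levels are shares of a library, a list this large tends to rise where the others fall. The endothelial list took 3.79%, 3.56% and 5.25% of reads in WT replicates 1 to 3, and 1.10%, 2.55%, 3.65% and 2.96% in ALAS12-KO replicates 1 to 4. Both of its markers had a negative log2 fold change, −0.61 ± 0.27 for miR-126a-3p, with an edgeR adjusted p of 0.264. The leukocyte list ran from 0.801% to 1.08% in WT and from 0.293% to 0.977% in ALAS12-KO, with 6 of 6 members negative and −0.17 ± 0.27 for miR-142a-3p. The mesenchymal list ran from 0.42% to 0.702% and from 0.157% to 0.577%, with 5 of 6 negative and −0.46 ± 0.30 for miR-143-3p. The cholangiocyte list ran from 0.0139% to 0.0243% and from 0.00544% to 0.0105%, with 5 of 5 negative and −1.31 ± 0.27 for miR-200a-3p. The red cell list ran from 0.00205% to 0.00272% and from 9.11e-04% to 0.00203%, with 4 of 4 negative and −0.34 ± 0.31 for miR-451a. The hepatocyte list ran from 61.7% to 64.3% and from 58.7% to 67.1%, with 6 of 6 positive and 0.20 ± 0.16 for miR-122-5p. The signs and log2 fold changes of these lists are TMM-scaled, whereas the percentages are of library totals. In CPM the mean of miR-122-5p was 578599 in WT and 576745 in ALAS12-KO. Of all 450 tested miRNAs, 252 had a positive and 198 a negative log2 fold change. None of the listed markers passed the edgeR threshold, and the members are in none of the lists. The part of other cell types in the levels of miR-10a and miR-10b was not tested.

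**Figure D5:**
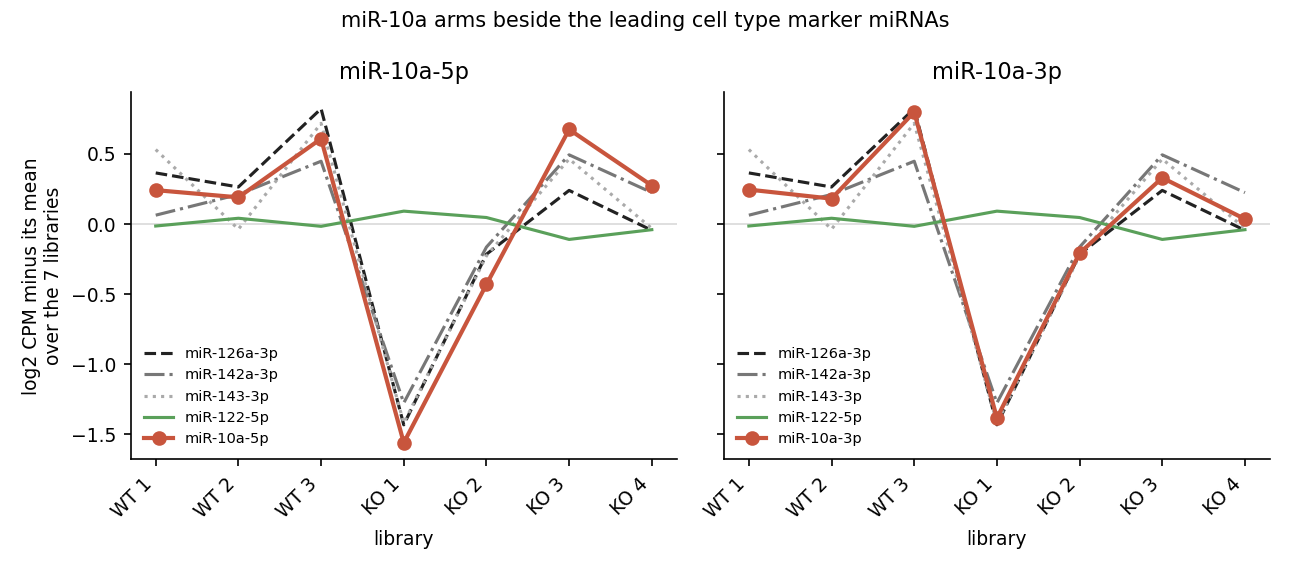
Log2 CPM of miR-10a-5p (left) and miR-10a-3p (right) in each library, minus its mean over the 7 libraries, beside miR-126a-3p (endothelial), miR-142a-3p (leukocyte), miR-143-3p (mesenchymal) and miR-122-5p (hepatocyte). Lines only join the points of a miRNA. All but miR-122-5p are lowest in ALAS12-KO replicate 1, where miR-10a-5p is at −1.56 and miR-122-5p at 0.09.

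miR-10a gave nearly all the reads that come from miRNA genes of the Hox clusters. Both arms of miR-10a together made up 93956 of 94460 such reads (99.5%), and 99.3% to 99.7% in each library. The other Hox-cluster miRNAs are miR-196a and miR-196b, of which miR-196a is known to target Hoxb8, and miR-615. Of their 7 mature names, 1 passed the filter. miR-196a-1-3p and miR-196b-3p had 0 reads in every library. Over all libraries miR-196a-5p had 2 reads, miR-196a-2-3p 1, miR-615-5p 2 and miR-615-3p 6. miR-196b-5p was tested, on 2 to 21 reads a library. Its WT mean was 0.930 ± 0.270 CPM (SD, n = 3), and its ALAS12-KO mean was 0.657 ± 0.397 CPM (SD, n = 4). Its log2 fold change was −0.40 ± 0.49, with an edgeR adjusted p of 0.667. Its lowest library was again ALAS12-KO replicate 1. Mir196b overlaps an exon of Hoxa9 on the same strand.

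The miR-99 and miR-100 miRNAs are the closest relatives of miR-10 outside the Hox clusters and show how small the step to another seed is.
miR-99a-5p: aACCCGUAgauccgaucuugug
miR-100-5p: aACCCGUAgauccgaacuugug
miR-99b-5p: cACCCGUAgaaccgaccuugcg
These 3 share the seed ACCCGUA. Of the 6 arms of this family 5 passed the filter, and edgeR called 0 of them, with 2 positive and 3 negative and a median log2 fold change of −0.04. Of the 5p arms, miR-99b-5p lay nearest to miR-10a-5p in profile (RMS difference 0.24). Its WT mean was 102 ± 25.9 CPM (SD, n = 3), and its ALAS12-KO mean was 73.0 ± 28.7 CPM (SD, n = 4). miR-100-5p, with 12.8 CPM in ALAS12-KO replicate 1 and 130 CPM in replicate 3, lay at 0.36. miR-99a-5p, which had 348 CPM in ALAS12-KO replicate 1 and 1080 CPM in replicate 3, lay at 0.59. Its log2 fold change of 0.60 ± 0.31 (edgeR adjusted p = 0.317) was of the opposite sign to that of miR-10a-5p. miR-99b-5p had −0.34 ± 0.27 and miR-100-5p 0.12 ± 0.56, with edgeR adjusted p of 0.491 and 0.921. The 3p arms miR-99a-3p and miR-99b-3p had −0.04 ± 0.17 and −0.34 ± 0.27, and miR-100-3p had 23 reads in all. miR-99a-5p and miR-100-5p also differ by 1 base, U16A (miR-99a first), with 56410 and 6319 reads in all.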

How the data were processed

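The deposited files, 1 for each library, hold read counts of mature miRNAs as whole numbers. Cutadapt, limma, mm10 and hg38 are listed, with no role, in the submitters' processing notes. The sources used here do not give the aligner, the counter, the annotation or how multiply matching reads were treated. Library sizes and tests used miRNA names alone, without the 5 summary entries. Of all counted reads 50.9% to 73.7% fell in no miRNA and 4.54% to 8.00% were unaligned, and the entry for non-unique alignment was 0 in every library.

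Genotypes were compared over all miRNAs with edgeR 4.0.16 (quasi-likelihood, robust, TMM, filterByExpr at a minimum count of 10). Calls are at a Benjamini-Hochberg adjusted p under 0.05. Arm ratios (0.5 added to each arm) were compared with limma 3.58.1 over all hairpins with both arms past the filter. The paralog ratio was compared with an exact permutation test in Python 3.11.15. DESeq2 1.42.0, limma-voom, other scalings and filters, a block for replicate number and fits without 1 library were alternatives. The scripts were tested on simulated counts. Named are the members, the other Hox-cluster and miR-99/100 miRNAs and the most abundant marker of each cell type list. Also named are the 5 nearest profiles of each 5p arm and of miR-10a-3p (0.5 reads added before the log). The members and lists were chosen with earlier results of these data known. The QIAseq spike-ins were not analysed here, so levels are relative to all miRNA reads of a library.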

Additional observations from a re-analysis of the deposited data

How the results depend on the processing

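The log2 fold changes of miR-10a-5p, miR-10a-3p and miR-10b-5p stayed negative and short of the threshold under all alternatives that could be run (15, 15 and 14). Leaving out 1 library each gave −0.62 to −0.06, −0.68 to −0.29 and −0.76 to −0.05. The labels do not say whether same-numbered WT and ALAS12-KO libraries belong together. Their deviations correlated at −0.01, −0.40 and −0.02, and those of differently numbered libraries at −0.32 to 0.46. With so few libraries these correlations cannot show whether the numbers mark pairs. With the replicate number as a block the values were −0.56, −0.60 and −0.56, the miR-10a arm difference was −0.04, and edgeR called 0 miRNAs. ALAS12-KO replicate 4 has no WT library of its number, so with the block it adds nothing to the genotype difference. The number of miRNAs called was 2 with library totals, 22 with DESeq2 and 13 with no filter, and 0 to 1 without 1 library. None was a member. At unadjusted p under 0.05, TMM gave 46 higher and 38 lower miRNAs, library totals gave 21 and 56, upper-quartile scaling gave 23 and 47, and the 10 CPM filter gave 20 and 34. miR-10b-5p had no value under that filter and miR-10b-3p had one only with no filter. The ratio of miR-10b-5p to miR-10a-5p turned sign with 10 reads added to each count (0.11), and ran from −0.33 to 0.22 without 1 library. Without ALAS12-KO replicate 1, the profile differences from miR-122-5p fell to 0.40 for miR-10a-5p, 0.33 for miR-10a-3p and 0.50 for miR-10b-5p, and those from the other 5 leading markers moved by less than 1.5 times. The causes were not tested. The arm difference of miR-10a kept its sign, from −0.20 to −0.01 without 1 library. At 14 to 118 reads a library, depth limits what can be said of miR-10b-5p, and a change of miR-10b-3p was not detectable.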

Other observations

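Beside the endothelial miR-126a-3p, miR-10a-5p stood higher in ALAS12-KO replicates 3 and 4, and the pattern depended on the marker. Per 1000 reads of miR-126a-3p, miR-10a-5p had 36.3, 37.6 and 34.1 reads in WT replicates 1 to 3, and 36.2, 34.1, 53.5 and 49.4 reads in ALAS12-KO replicates 1 to 4. There ALAS12-KO replicates 3 and 4 were above the other 5 libraries. The same held for miR-10a-3p, by less, with 0.952 and 0.946 reads against 0.824 to 0.922 in the other 5. For each 1000 reads of the leukocyte miR-142a-3p, miR-10a-5p had 253, 221 and 250 reads in WT and 184, 186, 254 and 232 reads in ALAS12-KO. There ALAS12-KO replicates 1 and 2 were below the other 5 libraries. Against 1000 reads of the mesenchymal miR-143-3p, it had 199, 285 and 226 reads in WT and 221, 211, 282 and 301 reads in ALAS12-KO, and the groups overlapped. The comparisons were chosen after the values were seen and were not tested.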
